A study of Danio rerio with 6 samples.

Results

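The Fgf ligand gene fgf8a and 3 genes whose transcription reads out Fgf signalling, dusp6, etv4 and etv5b, were followed in sorted zebrafish cells with and without depletion of Atoh1b. The 4 genes were taken by their Ensembl identifiers from the 32266 genes of the count table, and each had reads in all 6 samples. RNAseq had been performed on DsRed-positive cells isolated by flow cytometry from embryos at late OEPD stages. The OEPD, or otic-epibranchial progenitor domain, forms the inner ear and neighbouring placodes. Embryos of both groups were heterozygous for the pax8:DsRed transgene, which marks the OEPD and the nephric anlagen, so that sorted cells could come from either. The part of each tissue in a sample was not measured. Embryos of the 3 atoh1b-MO samples (II, IV and V) had received an antisense morpholino against atoh1b, a gene of early hair cell formation, soon after fertilisation. The 3 control samples (I, II and III) are labelled wild type, and no injection is named for them.

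One label of the injected samples, that for genotype, gives dlx3b/4b. Their titles give atoh1b, as does the study, and titles were used here. No level of atoh1b, the morpholino's own target, could be given, and its depletion was not checked here. The gene lies on an unplaced scaffold, and genes on such scaffolds had no counts in any sample. The study dismissed control III, so the first comparison set atoh1b-MO II, IV and V against controls I and II (5 samples), and the second used all 6. The study describes the samples of a group as biological replicates and mentions a clutch effect, but the labels do not tie samples to clutches.

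Fgf ligands bind receptor tyrosine kinases and act through Ras and MAP kinase. In vertebrate embryos, Fgf signals from the hindbrain and the underlying mesoderm induce the otic placode, and in zebrafish fgf8 and fgf3 share this task. The signal switches on its own inhibitors, among them Dusp6, a phosphatase that inactivates the MAP kinase Erk, and ETS transcription factors such as Etv4 and Etv5b. The levels of these target genes are therefore widely used as a measure of Fgf activity.

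Total counts ranged from 24120228 to 37169850 per sample, so that 3 counts, taken as the detection floor, corresponded to 0.0802 to 0.122 CPM. CPM are counts scaled to a common library total, here with TMM factors, and RPKM are the same counts also divided by gene length in kilobases. Genes with an adjusted p below 0.1 in edgeR's quasi-likelihood test, a false discovery rate of 10%, were called differentially expressed. Of 18397 genes tested in 5 samples, 110 (0.598%) were called, 83 higher and 27 (0.147%) lower in atoh1b-MO. In 6 samples 0 of 17874 genes (0%) were called, 1040 (5.82%) had an unadjusted p below 0.05, and DESeq2 called 449.

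The ligand gene fgf8a (ENSDARG00000003399, chromosome 13, 28364969 to 28371535, plus strand) stood out by a difference within each group. Its level was 24.6, 9.84 and 9.16 CPM in atoh1b-MO II, IV and V, against 11.9, 11.2 and 48.9 CPM in controls I, II and III. Control III was highest and atoh1b-MO II second, and the other 4 samples lay close together, with atoh1b-MO IV and V just below controls I and II. Its reads numbered between 242 in atoh1b-MO IV and 1366 in control III.

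No difference in fgf8a between the groups passed the test. In 5 samples its log2 fold change was 0.33 ± 0.41 (SE, edgeR adjusted p = 0.811), and in 6 samples it was −0.72 ± 0.68 (SE, edgeR adjusted p = 0.891). Its sign in 5 samples rested on atoh1b-MO II, without which the value was −0.28. The exons of fgf8a share 1133 of 2238 bases with si:ch211-194i8.3, a gene on the opposite strand that had between 0 and 6 reads per sample. It is not known if strand entered the counting, and without strand reads from shared bases would not be told apart, so that the level of fgf8a may be too low by an unknown amount.

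**Figure D1:**
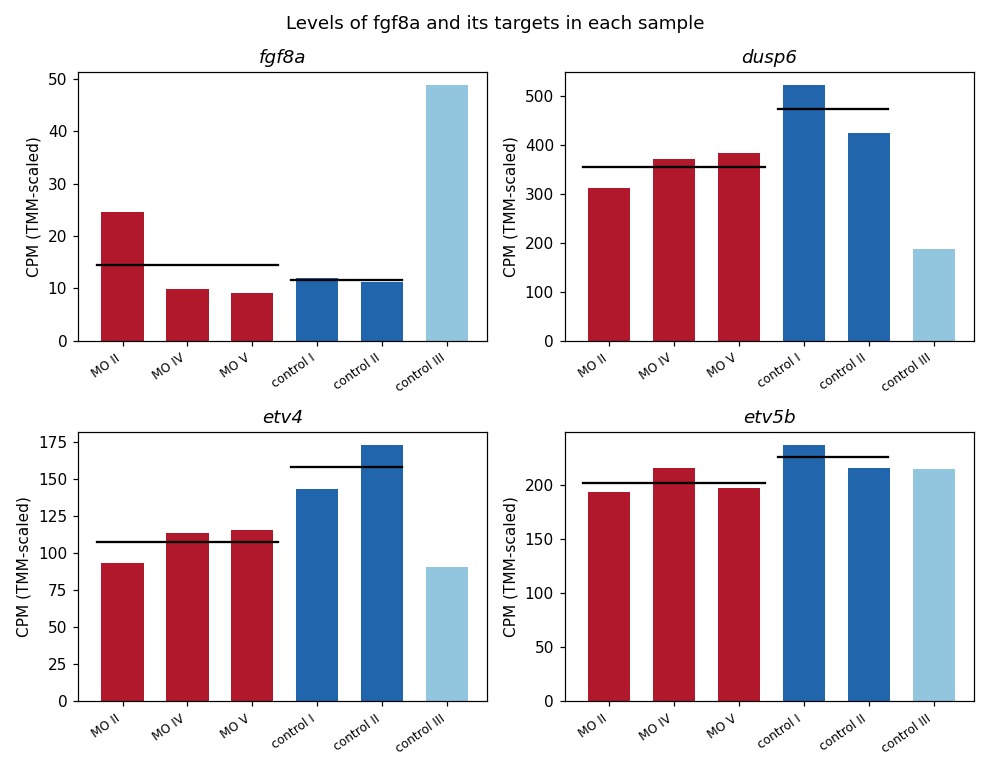
Levels of fgf8a, dusp6, etv4 and etv5b in CPM (TMM-scaled, linear axes from 0) in the 3 atoh1b-MO samples (red), controls I and II (dark blue) and control III (light blue); black lines are the means of the atoh1b-MO samples and of controls I and II. Control III holds the highest fgf8a and the lowest dusp6, and for dusp6 and etv4 every atoh1b-MO sample lies below controls I and II.

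The feedback phosphatase gene dusp6 (ENSDARG00000070914, chromosome 25, 18229898 to 18234103, minus strand) had 312, 370 and 382 CPM in atoh1b-MO II, IV and V, against 523, 424 and 187 CPM in controls I, II and III. Every atoh1b-MO sample lay below controls I and II, and control III lay below all other samples. Mean levels were 355 ± 37.4 CPM in atoh1b-MO (SD, n = 3) and 473 ± 69.7 CPM in controls I and II (SD, n = 2).

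In 5 samples the log2 fold change of dusp6 was −0.41 ± 0.12 (SE, edgeR unadjusted p = 0.00843), and after adjustment over all genes it did not pass (edgeR adjusted p = 0.259). With control III included, the value was −0.09 ± 0.34 (SE, edgeR adjusted p = 0.969). The call in 5 samples depended on the fit. Adjusted p-values were 0.0766 with DESeq2, 0.051 with no filter on low counts and 0.0115 with a term for the samples numbered 2 in both groups, and over all alternatives they ranged from 0.0115 to 0.84. The same 3 fits called 1.4%, 0.628% and 1.39% of all genes lower.

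The ETS factor gene etv4 (ENSDARG00000018303, chromosome 12, 27444735 to 27477334, plus strand) encodes a direct effector of Fgf signalling in many tissues. It had 92.9, 114 and 115 CPM in atoh1b-MO II, IV and V, against 143, 173 and 90.7 CPM in controls I, II and III. As for dusp6, the atoh1b-MO samples lay below controls I and II, while control III was the lowest sample, just under atoh1b-MO II. The log2 fold change was −0.55 ± 0.13 in 5 samples (SE, edgeR unadjusted p = 0.00235, adjusted p = 0.16) and −0.34 ± 0.23 in 6 samples (SE, edgeR adjusted p = 0.86).

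In the alternative fits, etv4 passed in 5 samples with DESeq2 (adjusted p = 0.00838), with no filter (edgeR adjusted p = 0.0127) and with the term for number 2 (edgeR adjusted p = 0.0518). Adjusted p-values over all its alternatives ranged from 0.00838 to 0.42. Of its 1974 exon bases, 130 overlap si:dkey-69o7.2 on the opposite strand, which had no more than 2 reads in any sample.

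The related ETS factor gene etv5b (ENSDARG00000044511, chromosome 6, 13902582 to 13910699, minus strand) varied least. Its level was 193, 215 and 197 CPM in atoh1b-MO II, IV and V, against 237, 215 and 214 CPM in controls I, II and III. The groups overlapped, since atoh1b-MO IV lay marginally above controls II and III. The highest sample exceeded the lowest 1.22-fold for etv5b, compared with 1.91-fold for etv4, 2.79-fold for dusp6 and 5.34-fold for fgf8a. In 5 samples its log2 fold change was −0.16 ± 0.086 (SE, edgeR adjusted p = 0.555), and in 6 samples it was −0.14 ± 0.082 (SE, edgeR adjusted p = 0.858).

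Among the 4 genes, the main edgeR fit called none in either comparison. In 5 samples dusp6 and etv4 were called with DESeq2, with no filter and with the term for number 2. For dusp6 and etv4 all atoh1b-MO samples lay below controls I and II, an order found for 14.7% of the genes tested, and both had an unadjusted p below 0.05, which 4.54% of genes reached on the lower side and 11.2% on either side. When control III was included, none of the 4 lay wholly below the controls. That order was found for 5.82% of genes, so that none among 4 genes is no departure from this share.

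Per unit of length the order of the 4 genes was the same in most samples. In RPKM, dusp6 averaged 119 ± 12.6 in atoh1b-MO and 159 ± 23.5 in controls I and II, and it was the highest of the 4 in these 5 samples. Next stood etv5b, with 71.2 ± 4.09 RPKM in atoh1b-MO and 79.6 ± 5.41 RPKM in controls I and II, and etv4, with 54.3 ± 6.30 RPKM in atoh1b-MO and 80.0 ± 10.6 RPKM in controls I and II (SD, n = 3 atoh1b-MO and 2 controls). In controls I and II the levels of etv4 and etv5b did not differ beyond their spread. In every sample except control II, etv5b lay above etv4, so that this order was not particular to atoh1b-MO.

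The level of fgf8a was the lowest in every sample, with 11.0, 4.40 and 4.09 RPKM in atoh1b-MO II, IV and V, against 5.33, 4.99 and 21.9 RPKM in controls I, II and III. The ratio of dusp6 to fgf8a in RPKM was 9.57, 28.3 and 31.4 in atoh1b-MO II, IV and V, against 33.0, 28.6 and 2.88 in controls I, II and III. Both samples with high fgf8a had low ratios, in part because fgf8a is the divisor. The other 4 samples lay between 28.3 and 33.0. Control III was also the only sample in which etv5b, with 75.5 RPKM, lay above dusp6, with 63.0 RPKM.

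**Figure D2:**
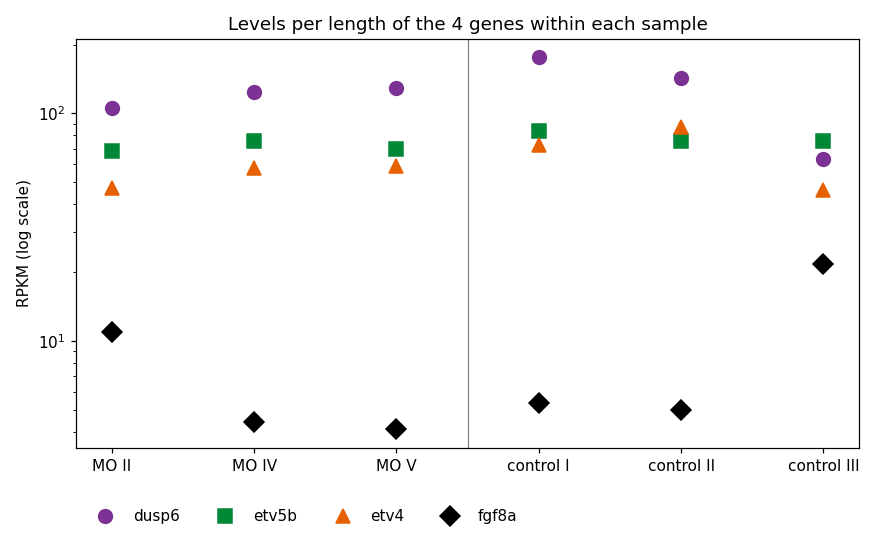
RPKM (log axis) of dusp6, etv5b, etv4 and fgf8a in each sample, atoh1b-MO II, IV and V on the left of the line and controls I, II and III on the right. The distance between dusp6 and fgf8a narrows in atoh1b-MO II and in control III, where their ratio was 9.57 and 2.88.

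Control III lay above controls I and II for fgf8a and below them for dusp6 and etv4, whereas for etv5b it was level with control II. On a log2 scale with 0.5 CPM added, control III lay 2.04 above the mean of controls I and II for fgf8a, a distance that 4.76% of genes reached. It lay at −1.33 for dusp6, −0.79 for etv4 and −0.08 for etv5b, distances reached by 10.8%, 23.2% and 87.5% of genes. Measured the same way, atoh1b-MO II against the mean of atoh1b-MO IV and V lay at 1.33 for fgf8a, −0.27 for dusp6, −0.30 for etv4 and −0.09 for etv5b.

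Midbrain and hindbrain markers moved with fgf8a. All 6 genes of a midbrain and hindbrain list (eng2a, eng2b, wnt1, her5, egr2b and mafba) were highest in control III and second in atoh1b-MO II, and none was at 0 in any sample. How many of all genes had this order was not counted. Control III lay above both other controls for 7318 of 17874 genes, a looser order that takes no account of the atoh1b-MO samples. The summed level of the 6 genes was 122, 24.3 and 37.7 CPM in atoh1b-MO II, IV and V, against 44.1, 43.7 and 254 CPM in controls I, II and III. The boundary between midbrain and hindbrain is itself a well-known source of Fgf8 in vertebrate embryos, and the part of such cells in the fgf8a levels was not tested. In pools of sorted cells, fewer cells of a type and less RNA per cell cannot be told apart.

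In sum, the otic-epibranchial markers were arranged as dusp6 was, but most of them singly were not. The 7 otic-epibranchial genes (pax8, pax2a, dlx3b, dlx4b, foxi1, eya1 and sox9a) summed to 740, 1031 and 925 CPM in atoh1b-MO II, IV and V, against 1120, 1255 and 317 CPM in controls I, II and III. In this sum, to which pax2a and pax8 gave the most in controls I and II, every atoh1b-MO sample was below controls I and II and above control III. Since the pax8 transgene also marks the nephric anlagen, the sum, with its pax8 and pax2a parts, cannot be assigned to otic-epibranchial cells alone. Of the single genes, 2 of 7, pax8 and eya1, had that arrangement, and dlx3b, dlx4b and foxi1 were higher in control III than in control I. The endogenous pax8 gene alone had 109, 201 and 173 CPM in atoh1b-MO II, IV and V, against 295, 226 and 16.5 CPM in controls I, II and III.

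The 4 nephric genes (cdh17, hnf1ba, lhx1a and osr1) summed to 444, 678 and 665 CPM in atoh1b-MO II, IV and V, against 692, 585 and 47.8 CPM in controls I, II and III. Control III was far below all other samples in this sum, whereas atoh1b-MO IV and V lay near control I and above control II, unlike for dusp6.

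Other lists were mixed. Of the 4 muscle and paraxial mesoderm genes, myod1, myf5 and tbx6 were highest in control III and tbx16 was lowest there, at 58.0, 72.2 and 59.3 CPM in atoh1b-MO II, IV and V, against 122, 73.1 and 32.3 CPM in controls I, II and III. The 4 genes summed to 91.2, 104 and 90.3 CPM in atoh1b-MO II, IV and V, against 148, 97.0 and 156 CPM in controls I, II and III. Both forebrain genes, foxg1a and emx3, were highest in control III, and they summed to 21.8, 8.37 and 10.7 CPM in atoh1b-MO II, IV and V, against 11.1, 20.0 and 52.3 CPM in controls I, II and III.

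Of the 2 heart genes, hand2 was lowest in control III, at 29.7 CPM, and nkx2.5 was below 2 CPM in every sample. Of the 2 blood genes, gata1a, a gene of red blood cell precursors, had 231, 323 and 423 CPM in atoh1b-MO II, IV and V, against 338, 297 and 8.81 CPM in controls I, II and III. The other, spi1b, a gene of the myeloid lineage, had 18.1, 24.7 and 40.8 CPM in atoh1b-MO II, IV and V, against 12.1, 13.6 and 6.23 CPM in controls I, II and III. All atoh1b-MO samples thus lay above all controls for spi1b, although it was not called (log2 fold change 1.12 ± 0.32 in 5 samples, SE, edgeR unadjusted p = 0.00768, adjusted p = 0.251). The share of all genes with this order was not counted. Reads from mitochondrial genes took 2.99%, 3.43% and 2.63% in atoh1b-MO II, IV and V, against 1.84%, 2.10% and 2.82% in controls I, II and III. The part of these marker and mitochondrial differences in the levels of dusp6 and etv4 was not tested.

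**Figure D3:**
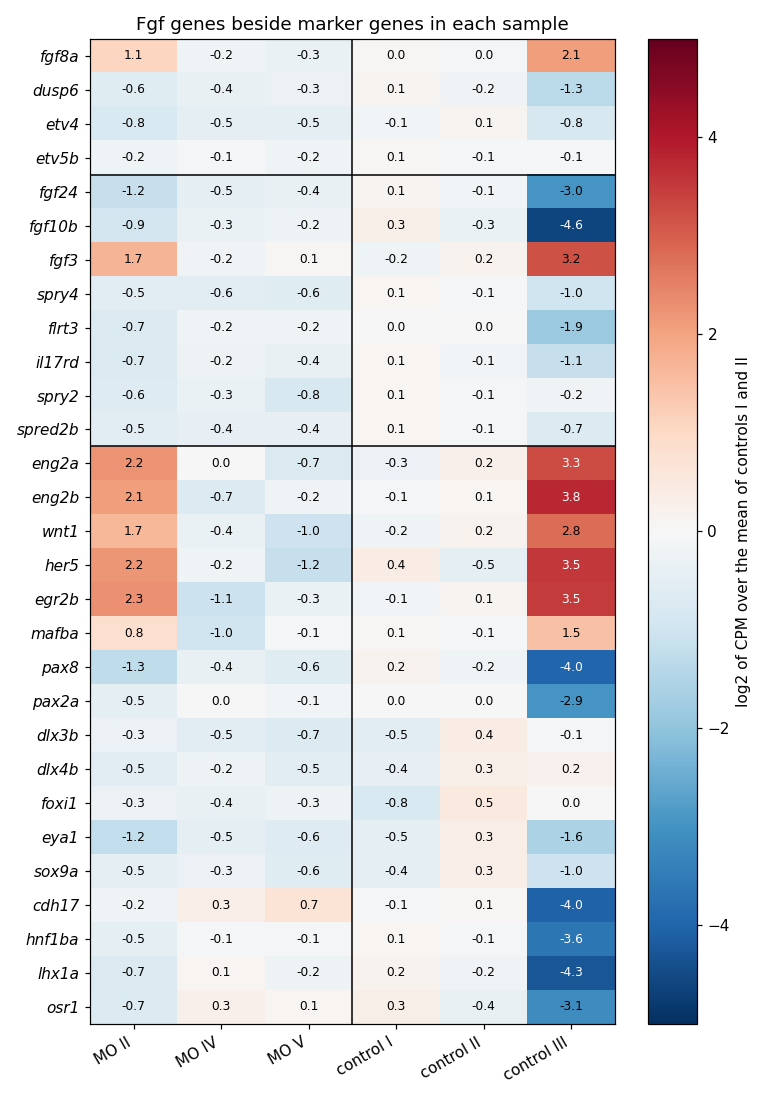
Log2 of CPM over the mean of controls I and II for the 4 genes (top), the Fgf ligands and feedback genes named by rule (middle) and the marker lists (bottom: midbrain-hindbrain from eng2a, otic-epibranchial from pax8, nephric from cdh17), with atoh1b-MO samples left of the controls; red is higher and blue lower. In control III and atoh1b-MO II fgf8a, fgf3 and the 6 midbrain-hindbrain genes are red, and dusp6, etv4 and pax8 are blue.

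The wider Fgf pathway was described through 78 genes in 5 lists, of which 70 passed the filter on low counts in 5 samples. Of these, 0 were called higher and 1, spry4, was called lower (0.147% of all genes tested were), and 13 had an unadjusted p below 0.05 (11.2% of all genes tested). The median log2 fold change of the 70 genes was −0.18, against 0.01 for all genes tested. In 6 samples 67 genes passed the filter, none was called, 6 had an unadjusted p below 0.05 (5.82% of all genes tested), and the median was −0.12, against −0.02 for all genes tested.

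The 15 feedback genes held the one call. The Sprouty gene spry4, an intracellular inhibitor of receptor tyrosine kinase signalling, had 72.8, 71.2 and 68.0 CPM in atoh1b-MO II, IV and V, against 112, 96.8 and 53.1 CPM in controls I, II and III. It fell in 5 samples, with a log2 fold change of −0.56 ± 0.096 (SE, edgeR adjusted p = 0.0808), and its 3 atoh1b-MO samples differed little. The call was lost on leaving out atoh1b-MO IV (edgeR adjusted p = 0.347), atoh1b-MO V (0.254), control I (0.456) or control II (0.117), and with control III added (0.876), but not on leaving out atoh1b-MO II (0.0604). With 1 of the 5 samples left out, the log2 fold change lay between −0.67 and −0.46, and with control III added it was −0.31.

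All 15 feedback genes, dusp6 among them, had a negative log2 fold change in 5 samples, with a median of −0.35. Of all genes tested, 50.9% had a positive one. This was not particular to the feedback genes. All 7 otic-epibranchial genes also had a negative value in 5 samples, with a median of −0.44, as had 3 of the 4 nephric genes. All 6 midbrain and hindbrain genes had a positive one. The value of spred2a was near 0, at −0.01, and spred3 had no more than 21 reads in any sample. Of the 15, 7 had an unadjusted p below 0.05, which 4.54% of all genes reached on the lower side. In the 5-sample fits with DESeq2 and with the term for the samples numbered 2, spry2 and spred2b were called lower beside dusp6 and spry4, and with the term so were il17rd, dusp4 and flrt3. In 9 of the 15 every atoh1b-MO sample lay below controls I and II, compared with 14.7% of all genes. With control III included, 10 of the 15 values were negative and the median was −0.13. Control III was the lowest of all samples for 11 of the 15 and the highest for 3. The share of all genes with either order was not counted. Among all 17874 genes tested, control III lay above both other controls for 7318. That looser order takes no account of the atoh1b-MO samples and does not give the missing share.

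Another Sprouty gene, spry2, had 60.5, 75.8 and 53.8 CPM in atoh1b-MO II, IV and V, against 101, 87.5 and 83.0 CPM in controls I, II and III. It was the only 1 of the 15 feedback genes in which the atoh1b-MO samples lay below all 3 controls, an order found for 5.82% of all genes. Its log2 fold change was −0.57 in 5 samples (edgeR adjusted p = 0.225) and −0.52 in 6 samples (edgeR unadjusted p = 0.012), where DESeq2 called it and no other gene of the lists.

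The membrane inhibitor gene il17rd, also known as Sef, had 127, 175 and 161 CPM in atoh1b-MO II, IV and V, against 225, 191 and 94.3 CPM in controls I, II and III (log2 fold change −0.43 in 5 samples, edgeR adjusted p = 0.322). The Sprouty-related gene spred2b, an inhibitor of Raf activation, had 33.8, 36.8 and 37.6 CPM in atoh1b-MO II, IV and V, against 52.8, 46.2 and 31.0 CPM in controls I, II and III (−0.45, edgeR adjusted p = 0.193). For both, as for dusp6, the atoh1b-MO samples lay below controls I and II and above control III. The transmembrane protein gene flrt3, which in Xenopus promotes rather than inhibits Fgf signalling, had 444, 637 and 639 CPM in atoh1b-MO II, IV and V, against 752, 713 and 201 CPM in controls I, II and III (−0.35, edgeR adjusted p = 0.447).

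Of the 4 ETS genes on the list, etv5a resembled etv4. It had 102, 116 and 113 CPM in atoh1b-MO II, IV and V, against 120, 153 and 107 CPM in controls I, II and III, and its log2 fold change in 5 samples was −0.30 (edgeR unadjusted p = 0.0393, adjusted p = 0.417). The last of the 4, etv1, was low, at no more than 1.52 CPM and 41 reads in any sample. Its log2 fold change in 5 samples was positive, at 0.36 ± 0.82 (SE, edgeR adjusted p = 0.908).

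The ligand list holds 26 genes named fgf, fgf11a, fgf12a, fgf13a and fgf13b among them. Whether each encodes a ligand of Fgf receptors was not checked. Of the 26, 18 passed the filter in 5 samples, and fgf7 and fgf9 had no reads at all. The ligand gene fgf3, the partner of fgf8 in otic induction, had 6.32, 1.75 and 2.06 CPM in atoh1b-MO II, IV and V, against 1.69, 2.22 and 17.8 CPM in controls I, II and III. It was high in the same samples as fgf8a, and its log2 fold change was 0.78 ± 0.58 in 5 samples (SE, edgeR adjusted p = 0.666) and −1.10 in 6 samples (edgeR unadjusted p = 0.309).

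The ligand genes fgf24 and fgf10b had the opposite order. For fgf24, which in zebrafish acts in pectoral fin bud formation, levels were 20.0, 32.4 and 34.9 CPM in atoh1b-MO II, IV and V, against 48.8, 40.6 and 5.73 CPM in controls I, II and III. Its atoh1b-MO samples lay below controls I and II (log2 fold change −0.61 ± 0.22, SE, edgeR adjusted p = 0.371). The fit with the term for number 2 called both genes lower, and DESeq2 called neither. The gene fgf10b had 17.5, 26.8 and 28.2 CPM in atoh1b-MO II, IV and V, against 40.4, 26.4 and 1.40 CPM in controls I, II and III (−0.46 ± 0.24, SE, edgeR adjusted p = 0.541). For this gene the groups overlapped at control II.

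The receptor list, with all 8 genes tested, had a median log2 fold change of −0.02 in 5 samples. The receptor gene fgfr4 had 265, 288 and 242 CPM in atoh1b-MO II, IV and V, against 282, 271 and 330 CPM in controls I, II and III. For fgfr1a levels were 128, 145 and 128 CPM in atoh1b-MO II, IV and V, against 147, 156 and 126 CPM in controls I, II and III. Neither was called, with log2 fold changes of −0.05 for fgfr4 (edgeR adjusted p = 0.869) and −0.18 for fgfr1a (edgeR adjusted p = 0.537).

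The co-receptor gene klb (β-Klotho), required by endocrine Fgfs in mammals, had 3.55, 4.11 and 3.45 CPM in atoh1b-MO II, IV and V, against 7.42, 7.11 and 4.48 CPM in controls I, II and III. All atoh1b-MO samples lay below all controls. The log2 fold change was −0.97 ± 0.23 in 5 samples (SE, edgeR adjusted p = 0.178) and −0.77 in 6 samples (edgeR unadjusted p = 0.0245). In 5 samples klb was called lower with DESeq2 and with the term for number 2. The gene fgfrl1b, which encodes a receptor without a kinase domain, had 46.3, 71.9 and 74.4 CPM in atoh1b-MO II, IV and V, against 62.4, 44.9 and 16.5 CPM in controls I, II and III, and the groups overlapped.

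The 25 transducer genes, which carry the signal from receptor to MAP kinase, had a median log2 fold change of −0.09 in 5 samples, and 1 of them had an unadjusted p below 0.05, compared with 11.2% of all genes. Named by the same rule were the Raf kinase gene araf (−0.09), the adaptor gene gab1 (0.23), the MAP kinase kinase gene map2k1 (0.54) and kras (−0.34), with edgeR adjusted p-values between 0.501 and 0.71. For kras the atoh1b-MO samples, at 14.1, 16.6 and 13.0 CPM, lay below all controls, at 18.4, 18.7 and 18.9 CPM. The transducer genes frs2b, sos2, hrasa, hrasb and ksr1a had the same order, which was found for 5.82% of all genes. In 6 samples 3 of the 25 had an unadjusted p below 0.05 in edgeR, all on the lower side, compared with 5.82% of all genes on either side. No count of these lists is independent evidence of a direction, as they were chosen with earlier results of these data known.

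**Figure D4:**
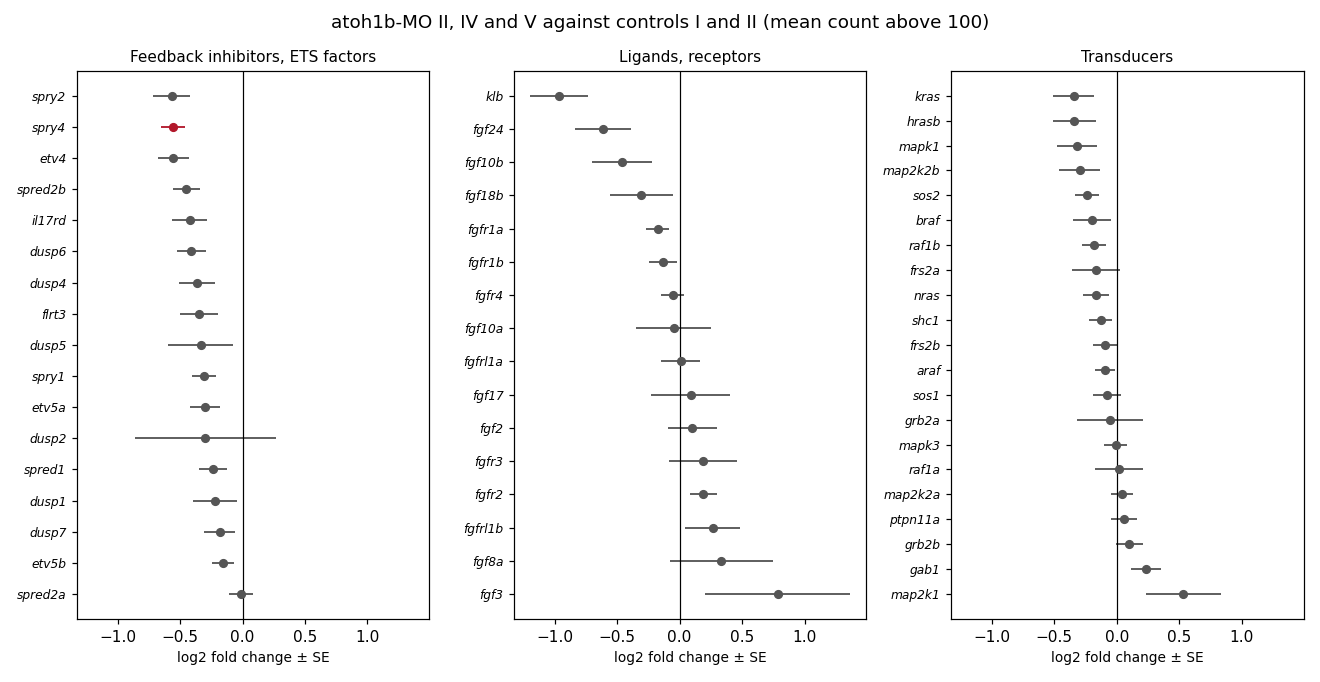
Log2 fold changes of atoh1b-MO II, IV and V over controls I and II, with standard errors derived from the edgeR test, for the Fgf list genes with a mean count above 100. All points of the feedback and ETS panel lie below 0 and spry4, in red, is the only one called; fgf3 and fgf8a have the highest values among the ligands and receptors, with wide errors.

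Across the 6 samples, genes with a mean level of at least 10 CPM (9090 genes) were ranked by the Pearson correlation of their log2 CPM with each of the 4 genes. The correlations are given as a description over few samples, and those with fgf8a rest largely on control III and atoh1b-MO II. With 9090 genes ranked over so few samples, high values can also arise by chance. Closest to fgf8a were ZIC5 (0.998), ek1 (0.997) and msx1b (0.996). ZIC5, a zinc finger factor gene of the family active in dorsal neural tissue, had 11.5, 2.56 and 2.42 CPM in atoh1b-MO II, IV and V, against 3.74, 3.82 and 39.5 CPM in controls I, II and III. The homeobox gene msx1b, expressed in the dorsal neural tube and neural plate border of vertebrates, had 48.0, 22.3 and 19.1 CPM in atoh1b-MO II, IV and V, against 26.9, 26.3 and 96.8 CPM in controls I, II and III.

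Closest to dusp6 were the posterior Hox genes HOXC11 (0.999) and hoxb8b (0.999) and the homeobox gene homeza (0.998). Each of them was lowest in control III, as dusp6 was, so that these correlations also rest in part on that sample. For hoxb8b levels were 14.4, 18.0 and 17.7 CPM in atoh1b-MO II, IV and V, against 26.8, 20.4 and 7.63 CPM in controls I, II and III, so that the atoh1b-MO samples lay between control III and the other controls, as for dusp6. Closest to etv4 were PAK4 (0.994), ANKRD6 (0.993) and SPIRE1 (0.991), and closest to etv5b were SMG6 (0.988), PRMT6 (0.986) and tut1 (0.984). The first of each varied little. PAK4 lay between 72.6 CPM in atoh1b-MO II and 80.1 CPM in control II, and SMG6 between 59.9 CPM in atoh1b-MO II and 67.7 CPM in control I. Names in capitals are those of the gene name table, which gives some zebrafish genes in the human style. None of the 4 genes was among the closest of another. Between members the same measure was −0.87 for fgf8a with dusp6, −0.68 for fgf8a with etv4, and 0.78 for dusp6 with etv4. With etv5b it was weaker, at −0.14 for fgf8a, 0.36 for dusp6 and 0.52 for etv4.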

How the data were processed

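RNA of sorted pax8:DsRed-positive cells from 3 atoh1b-MO and 3 control samples was sequenced. The authors deposited unnormalized featureCounts counts for each Ensembl gene, with its position and exon length. The submitters' processing notes name GRCz10 and featureCounts 1.5.3, whereas the study's methods name a later build and version. Positions are given as in the deposited table, whose chromosome ends fit GRCz10. Labels and methods also differ on the library kit, and strand use in counting is not stated. The 565 genes on unplaced scaffolds and the 92 spike-in rows held no counts.

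Symbols came from a gene name table, with families and chromosomes checked against a RefSeq table, and all 105 list symbols were tied to an identifier. Counts were tested with edgeR (4.0.16) in R (4.3.3), with filterByExpr, TMM and glmQLFTest, and p-values were adjusted by Benjamini-Hochberg over every gene tested. Standard errors were derived from the test, as the size of the log2 fold change over the root of its F statistic. The script was tested on simulated data. The study tested with DESeq2 and a term for clutch. That clutch term was not used here, as no label gives clutches. Alternatives used DESeq2 (1.42.0), limma voom (3.58.1), sva (3.50.0), other scalings and filters, and leaving out each replicate.

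The members and lists were chosen with earlier results of these data known. Named from each list were genes called, the 2 with the highest mean CPM and the 2 with the largest absolute log2 fold change among those with a mean count above 100, and for each of the 4 genes the 3 closest in log2 CPM (prior count 2).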

Additional observations from a re-analysis of the deposited data

How the results depend on the processing

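No paired analysis was possible because the groups share only the number 2. In 5 samples, genes called numbered 488 with no filter, 776 with DESeq2, 71 at an adjusted p below 0.05 and 713 with a term for the samples numbered 2, and 13 (without control I) to 260 (without atoh1b-MO II) with 1 replicate left out. Fgf pathway genes called numbered 6 of 76 tested with no filter, 7 of 70 with DESeq2, 0 of 70 at 0.05 and 11 of 70 with the term. With 1 atoh1b-MO replicate left out they numbered 0 to 1. All were lower except 1 with DESeq2. Of all genes tested, 0.628% with no filter, 1.4% with DESeq2 and 1.39% with the term were called lower. The Fgf pathway genes called with no filter were dusp6, etv4, il17rd, spred2b, spry2 and spry4. In 6 samples, of 17874 genes tested, 449 were called with DESeq2, 21 with limma voom and 279 with 1 surrogate variable. With 1 replicate left out, 0 to 110 genes were called. Fgf pathway genes called in 6 samples numbered 1 of 67 with DESeq2 and 0 to 1 with 1 replicate left out. The cause of these differences was not tested.

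The log2 fold change of dusp6 in 5 samples passed at −0.42 with no filter and with DESeq2 and at −0.46 with the term, and that of etv4 at −0.56, −0.56 and −0.57. Both stayed negative in all 14 alternatives in 5 samples. The alternative at an adjusted p below 0.05 changes only the calls, so that its log2 fold changes are those of the main fit. With 1 replicate left out, fgf8a ranged from −0.28 (without atoh1b-MO II) to 0.58 in 5 samples and from −1.33 to 0.33 (without control III) in 6 samples, where it was 0.014 with the surrogate variable. In 6 samples dusp6 ranged from −0.41 (without control III) to 0.21 (without control I). The feedback genes with a negative value numbered 14 or 15 under every alternative in 5 samples. The alternatives for spry4 and the pathway counts were added after seeing the data. Mean RPKM in controls I and II became 10.6 for fgf8a, 327 for dusp6, 165 for etv4 and 164 for etv5b as TPM. Under a prior count of 10, ZIC2 replaced msx1b among the 3 genes closest to fgf8a.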

Other observations

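The ligand gene fgf19, named here after its values were seen, had the reverse order of klb. It had 1.25, 1.87 and 1.76 CPM in atoh1b-MO II, IV and V, against 0.540 and 0.481 CPM in controls I and II, and no read in control III, where 3 counts would be 0.107 CPM. All atoh1b-MO samples lay above all controls, an order whose share among all genes was not counted. The log2 fold change in 5 samples was 1.67 ± 0.49 (SE, edgeR adjusted p = 0.268), from between 15 and 53 reads per sample, and DESeq2 called it higher. The ligand gene fgf17 was high in control III alone, at 3.59, 3.42 and 2.42 CPM in atoh1b-MO II, IV and V, against 2.74, 3.18 and 10.6 CPM in controls I, II and III. The receptor gene fgfr3 had 16.0, 8.86 and 10.2 CPM in atoh1b-MO II, IV and V, against 9.72, 10.9 and 25.4 CPM in controls I, II and III, so that it was high in the same samples as fgf8a.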
